A study of Mus musculus with 2 samples.

Results

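The cells described here are keratinocytes of mouse back skin that carried both Akr1c18 and Krt14, with little Scd1 and little of the division genes Mki67 and Top2a. This pattern was labelled as the basal layer of the sebaceous gland. They were chosen from the measured counts. A kept cell, with 500 or more detected genes and under 20% of its UMIs (counted transcript molecules) from mitochondrial genes, was a member where Akr1c18 made up 0.05% or more of its UMIs, Krt14 0.3% or more and Scd1 under 0.3%, and where Mki67 and Top2a together gave under 2 UMIs. By this rule 51 of 7248 kept cells were members, of which 34 came from the 2913 kept cells of the Card14KI library and 17 from the 4335 of the WT library.

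The Card14KI library came from 1 mouse with the genotype label Card14 KI +/+, and the WT library from 1 wild type mouse. Both mice were C57BL/6 and 12 months old, and full-thickness back skin was digested, cleared of dead cells and profiled by droplet 3' single-cell RNA sequencing. CARD14 is a keratinocyte adaptor that activates NF-kB by way of BCL10 and MALT1, and the series title takes Card14 mutant mice as models of the skin disease pityriasis rubra pilaris, with attention to IL-17 and IL-36 signalling. With 1 mouse per genotype no difference between the libraries has a replicate check, and no test was made. All intervals are at 95% and take in the error of counting alone.

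Sebaceous glands grow out of the wall of the hair follicle. Their outermost layer consists of keratin 14 cells that rest on the basement membrane and divide, and cells that leave this layer fill with lipid droplets, become sebocytes and burst to release sebum. The nuclear receptor PPARG drives this lipid programme, and keratinocytes of the epidermis between follicles instead switch to keratins 1 and 10 when they leave their basal layer.

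The tables held 3348 barcodes with 41460580 UMIs in the Card14KI library and 5016 barcodes with 54816411 UMIs in the WT library, of which 435 and 681 barcodes were removed by the cell filter. Of the removed barcodes, 6 and 12 met the gene thresholds of the rule. The libraries shared 2 barcodes, none of them a member. Kept cells had a median of 6964 UMIs in the Card14KI library and 7385 in the WT library.

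Members were 1.17% of kept cells in the Card14KI library (0.810 to 1.63) and 0.392% in the WT library (0.229 to 0.627), a difference of 0.775 percentage points (0.369 to 1.26). As a share of kept cells with Krt14 at or over 0.3%, they were 34 of 268 in the Card14KI library (12.7%) and 17 of 212 in the WT library (8.02%). That difference of 4.67 points had an interval of -0.969 to 10.07, which spans 0. With Mki67 and Top2a at 2 or more UMIs and all else as in the rule, there were 12 Card14KI and 11 WT cells.

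**Figure D1:**
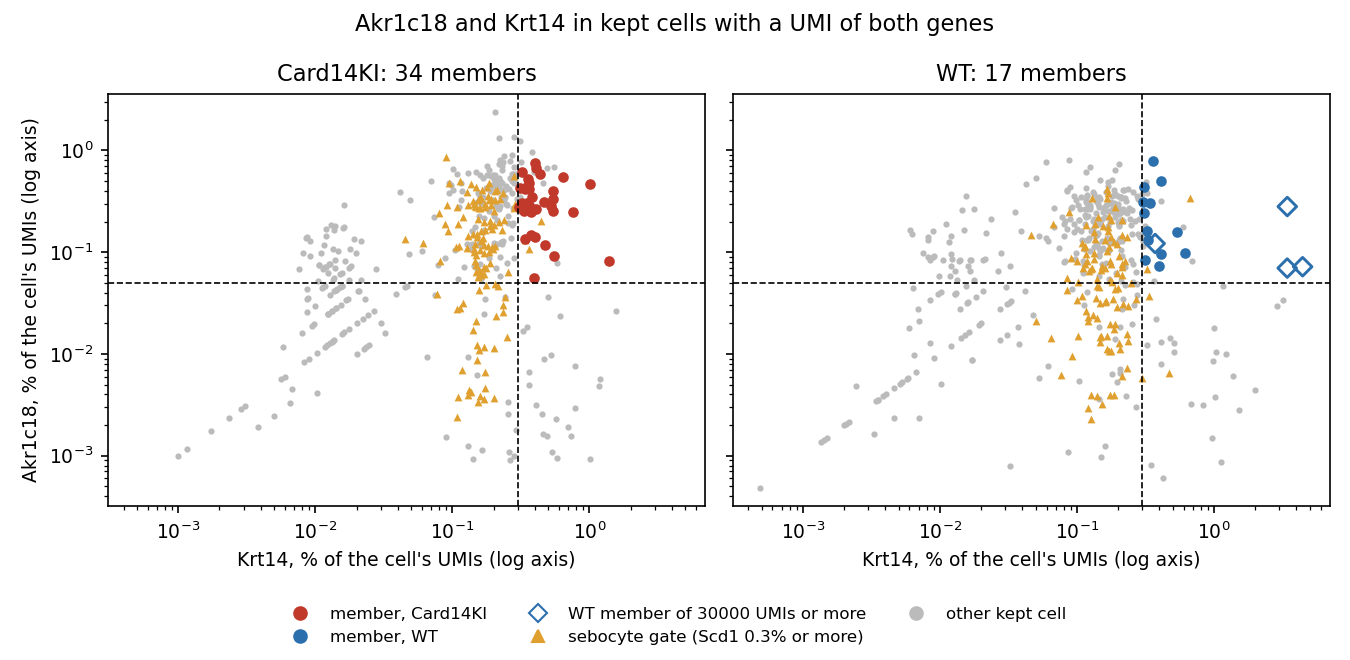
Share of UMIs from Krt14 (x) and Akr1c18 (y), both on log axes, in the 452 Card14KI (left) and 479 WT (right) kept cells with a UMI of both genes; dashed lines mark the 0.3% and 0.05% thresholds, and grey points past both are cells with 2 or more Mki67 and Top2a UMIs. Members lie at the Krt14-high edge of a larger group of Akr1c18 cells in both libraries, and 3 of the 4 WT members of 30000 UMIs or more stand apart at the right.

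The members sat at the edge of a larger population. In a clustering of all kept cells, 31 of 34 Card14KI and 12 of 17 WT members fell in a single cluster of 98 Card14KI and 129 WT cells, or 3.36% and 2.98% of kept cells. Its leading genes were Akr1c18, Pdk4, Akr1c19, Fgfbp1, Aldh3a1, 4631405K08Rik, C1qtnf12, Lmo1, Apoe and Abcc3. Members were 31.6% of the Card14KI cells of this cluster and 9.30% of its WT cells. A further 53 Card14KI and 94 WT cells of the cluster met the rule in all but Krt14. The median Krt14 share over the cluster was 0.242% of UMIs in Card14KI cells and 0.182% in WT cells, and 36 Card14KI and 19 WT cells were at or over the Krt14 threshold.

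The thresholds cut through a continuous range of Krt14. Krt14 lay between 0.308% and 1.39% of UMIs in Card14KI members, with a median of 0.388%, and between 0.305% and 4.44% in WT members, with a median of 0.372%. Just inside the threshold, 19 Card14KI and 10 WT members were under 0.4%, and just outside it 35 Card14KI and 34 WT cells had between 0.2% and 0.3% and met the rest of the rule. Of these, 28 and 26 belonged to the same cluster. For Akr1c18, 0 Card14KI and 2 WT cells lay between 0.03% and 0.05%, and for Scd1, 4 Card14KI and 2 WT cells were at or over 0.3%, in each case with the rest of the rule met. The 5 genes of the rule chose the cells, so their levels are a description.

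Members differed in depth between the libraries. Card14KI members held 1087 to 28344 UMIs, with a median of 10049 and 381821 in all, and WT members 1659 to 84611 UMIs, with a median of 12089 and 375825 in all. The 4 deepest WT members, each with 30000 UMIs or more, held 245560 UMIs, or 65.3% of the WT sum, and no Card14KI member was as deep. Of these 4 cells, 3 lay in a cluster led by Krt75, Krt6a, Pinlyp and Gabrp, with Krt14 at 3.43%, 3.43% and 4.44% of their UMIs, 307, 628 and 1511 UMIs of Krt6a, no UMI of Fgfbp1 and at most 1 of Psph. Krt75 and Krt6a are keratins of the companion layer and outer root sheath of the hair follicle, so these 3 cells go against the label. The fourth, in the same cluster as most members and with 8089 detected genes, had 42 UMIs of Fgfbp1 and 60 of Psph together with 161 of Krt79 and 457 of Cst6, genes of the upper follicle and gland duct. A Card14KI member in a cluster led by Cst6 also had no UMI of Fgfbp1 or Psph, and of the remaining 4 members outside the main cluster, 1 of each library lay in a cluster led by Col17a1 and Krt15 and 1 of each in a cluster led by Gm5678 and Psph. The doublet score of the fourth deep cell (Scrublet), like that of every other member, was under the level at which cells were removed in an alternative. This score cannot show whether the cell is a doublet, since Scrublet's automatic threshold was taken as not having worked. Differences between the libraries are therefore set out over all members, over the members under 30000 UMIs (34 Card14KI and 13 WT cells) and over the whole cluster of 98 and 129 cells.

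Of the label's 5 markers, Akr1c18 and Krt14 belong to the rule, and the other three (Fgfbp1, Apoc1 and Psph) were detected in most members. All 5 were present in 29 of 34 Card14KI and 13 of 17 WT members. Fgfbp1, a secreted carrier that releases fibroblast growth factors from the matrix, had a UMI in 31 of 34 Card14KI and 13 of 17 WT members. Psph, the last enzyme of serine synthesis, had one in 31 and 15, and Apoc1, an apolipoprotein of lipid particles, in all 34 and all 17. In fibroblasts, with median depths of 6184 UMIs in the Card14KI library and 8030 in the WT library, Fgfbp1 had a UMI in 2.98% and 4.18% of cells, Psph in 9.50% and 13.4%, and Apoc1 in 9.50% and 10.7%. With each cell thinned to 2000 UMIs, which left out 3 Card14KI members and 1 WT member, Fgfbp1 was seen in 25 of 31 Card14KI (80.6%) and 10 of 16 WT members (62.5%), and in 1.05% of Card14KI and 1.24% of WT fibroblasts. Thinned likewise, Apoc1 was seen in 89.4% of Card14KI and 77.2% of WT Akr1c18-low basal cells, keratinocytes defined below. In the Scd1-high sebocyte gate, also defined below, it was seen in 100% and 99.2%. Psph was seen in 7.69% and 14.2% of the former and 91.0% and 95.2% of the latter. For Fgfbp1 the shares were 39.4% and 16.5%, and 73.1% and 80.95%. Sebocyte gate cells thus shared these markers, and Akr1c18-low basal cells mostly Apoc1.

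Akr1c18 encodes the mouse enzyme 20-alpha-hydroxysteroid dehydrogenase, which inactivates progesterone, and lies at chr13:4132615-4150654 on the minus strand of GRCm38. It lay between 0.0556% and 0.761% of UMIs in Card14KI members, with a median of 0.307%, and between 0.0698% and 0.784% in WT members, with a median of 0.158%. The ranges overlapped almost entirely. Fgfbp1 lies at chr5:43978858-43981779, Psph at chr5:129765558-129787449, Apoc1 at chr7:19689481-19692660 and Krt14 at chr11:100203162-100207548, all on the minus strand. Akr1c18 has close relatives in the same gene cluster, among which reads can be split or lost. Of those listed, Akr1c13 had 3 UMIs in Card14KI and 6 in WT members, Akr1c14 had 2 and 0, and Akr1c12, Akr1c6, Akr1c20 and Akr1c21 had none in either. Akr1c19, a leading gene of the cluster named after its values were seen, had 189 CPM (UMIs per 1000000 UMIs of the members) in Card14KI members and 29.3 in WT members, 76.8 in the WT members under 30000 UMIs. Akr1c18 itself was not restricted to the gland, since fibroblasts had 250 CPM in the Card14KI library and 129 in the WT library, with a UMI in 30.8% and 17.4% of cells.

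The promoters of Akr1c18, Fgfbp1 and Plin2 are shown. Akr1c18 was high in the members by the rule, and Fgfbp1 and Plin2 were detected in most of them. Among 43 members of the main cluster, Spearman's rho between the UMI shares of Akr1c18 and Plin2 was 0.24 (-0.05 in Card14KI and 0.45 in WT cells). For Akr1c18 and Fgfbp1 it was 0.37 (0.42 and 0.27). Plin2 encodes the protein coat of lipid droplets and is a known target of PPAR receptors. Each line holds 250 bases before and 50 after the gene start in RefSeq's annotation of GRCm38.p6, 5′ to 3′ on the minus strand. Capitals mark the letters AGGTCA, the half-site of nuclear receptors such as PPARG, or its reverse complement TGACCT. The regions are chr13:4150597-4150896 for Akr1c18, chr4:86670010-86670309 for Plin2 and chr5:43981750-43982049 for Fgfbp1.
Akr1c18: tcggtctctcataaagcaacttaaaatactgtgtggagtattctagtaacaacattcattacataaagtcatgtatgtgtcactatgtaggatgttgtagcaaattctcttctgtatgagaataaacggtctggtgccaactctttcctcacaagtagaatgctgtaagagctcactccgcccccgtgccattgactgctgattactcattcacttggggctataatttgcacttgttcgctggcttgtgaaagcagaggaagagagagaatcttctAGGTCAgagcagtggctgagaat
Plin2: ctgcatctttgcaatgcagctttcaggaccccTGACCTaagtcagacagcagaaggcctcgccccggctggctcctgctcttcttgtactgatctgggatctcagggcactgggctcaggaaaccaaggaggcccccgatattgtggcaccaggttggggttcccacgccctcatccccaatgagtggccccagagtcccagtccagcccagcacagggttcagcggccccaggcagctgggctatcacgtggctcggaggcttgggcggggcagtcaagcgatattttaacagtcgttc
Fgfbp1: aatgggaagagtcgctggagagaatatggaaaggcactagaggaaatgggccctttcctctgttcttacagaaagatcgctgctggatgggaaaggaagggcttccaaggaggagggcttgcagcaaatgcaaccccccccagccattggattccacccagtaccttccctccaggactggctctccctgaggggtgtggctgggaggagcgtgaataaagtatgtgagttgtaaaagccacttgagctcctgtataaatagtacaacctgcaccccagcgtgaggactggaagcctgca

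Read on both strands, AGGTCA occurred once in the Akr1c18 window, on the gene's strand at position 27 from the gene start, and once in the Plin2 window, on the opposite strand at position -218. It was not in the Fgfbp1 window. The same letters occurred in 16.3% of the 32851 promoter windows of the table, 5340 in number. The letters CCAAT occurred in the Fgfbp1 window on the opposite strand at position -105 and in the Plin2 window on the gene's strand at position -73. TATAAA occurred in the Fgfbp1 window at position 3. CCAAT was found in 37.4% and TATAAA in 13.6% of all windows. A match is a description of these letters and not of binding.

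**Figure D2:**
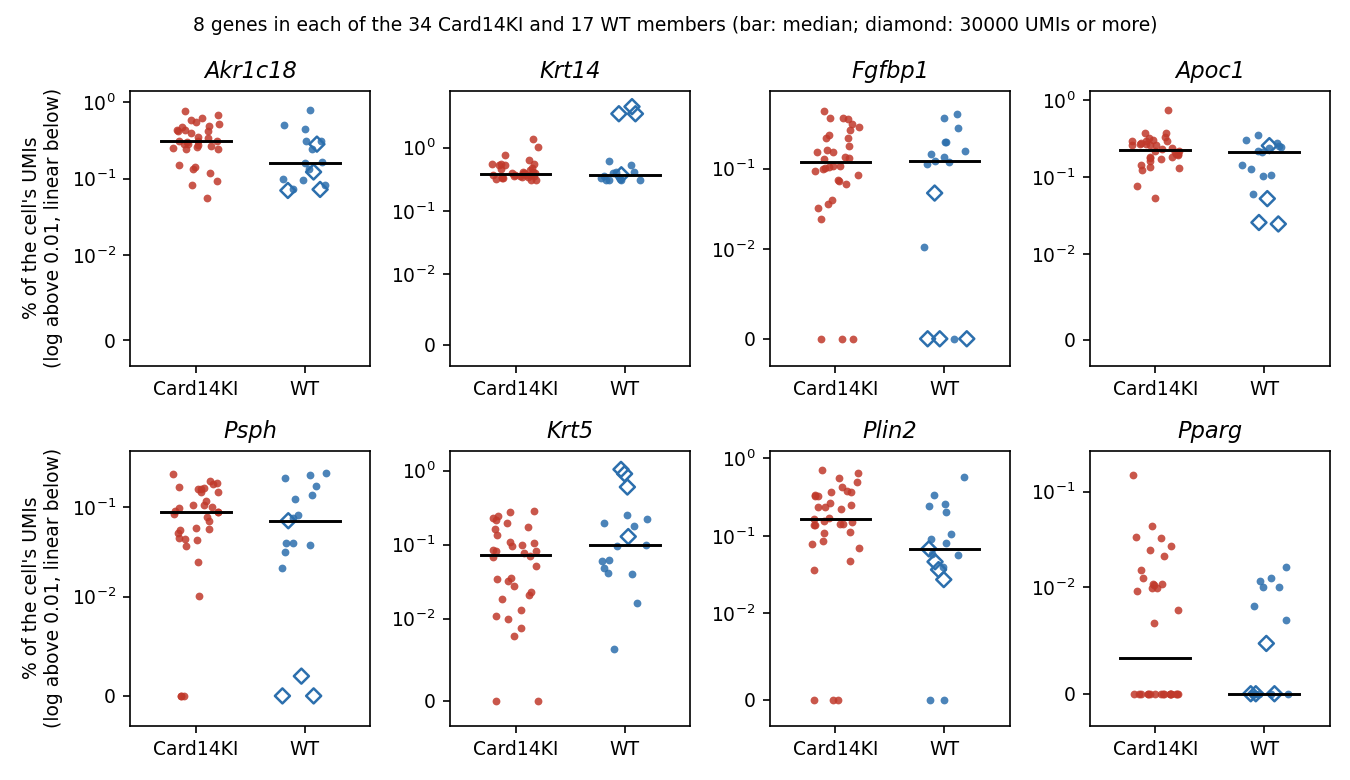
Share of UMIs (y, % of the cell's UMIs, log scale above 0.01 and linear below) of 8 genes in each of the 34 Card14KI and 17 WT members; points are cells, bars medians and diamonds the 4 WT members of 30000 UMIs or more. Apoc1 has a median of 0.227% in Card14KI and 0.215% in WT members, and 3 of the diamonds lie at the top for Krt14 and Krt5 and at 0 for Fgfbp1.

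By summed CPM, basal layer genes were present in the members below their level in other keratinocytes past the Krt14 threshold. Here the comparison is with 116 Card14KI and 148 WT cells that met the rule but for Akr1c18 under 0.05% (Akr1c18-low basal cells). They hold keratinocytes of the epidermis and of the follicle, with outer root sheath markers at 499 CPM in the Card14KI and 3248 CPM in the WT library. Spinous layer markers came to 29107 and 20504 CPM, so cells that had begun to differentiate may be among them, which was not tested. The Akr1c18-low basal cells had a median of 16940 UMIs in the Card14KI and 9055 UMIs in the WT library. Krt5, the partner keratin of Krt14, had 801 CPM in Card14KI members and 4558 CPM in WT members, 983 CPM without the 4 deep WT cells, against 3664 CPM in Akr1c18-low basal cells of the Card14KI library and 4822 CPM in those of the WT library. Krt5 was detected in 32 of 34 Card14KI and 17 of 17 WT members. Krt15, a keratin of follicle and basal cells, had 728 CPM in Card14KI members and 593 CPM in WT members, against 2830 and 901 CPM in the Card14KI and WT Akr1c18-low basal cells. Col17a1, the hemidesmosomal collagen XVII, had 131 CPM in Card14KI and 168 CPM in WT members, against 1089 and 671 CPM. The 10 basal markers together came to 2802 CPM in Card14KI members and 3309 CPM in WT members under 30000 UMIs, against 9218 and 7426 CPM in the Akr1c18-low basal cells. Over all WT members they came to 6075 CPM, near the WT Akr1c18-low basal cells. The other comparison is with the sebocyte gate, 147 Card14KI and 133 WT kept cells with Scd1 at 0.3% of UMIs or more and the same limit on Mki67 and Top2a, in which the basal markers came to 408 CPM in Card14KI and 232 CPM in WT cells. By this sum the Card14KI members and the WT members under 30000 UMIs lay between the other populations. Cell cycle genes outside the rule, 20 in number, summed to 2171 CPM in Card14KI and 1918 CPM in all WT members. In the Akr1c18-low basal cells they came to 1691 and 1637 CPM, and in the sebocyte gate to 1017 and 888 CPM. The limit on Mki67 and Top2a is a count of UMIs and so is stricter for deep cells. Sebocyte gate cells had medians of 22126 and 25653 UMIs, so the order of these sums can follow in part from the rule. A single Card14KI member came to 14706 CPM, against a median of 1834 CPM.

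Several products of epidermal differentiation were lower in the members than in the Akr1c18-low basal cells. Against the Akr1c18-low basal cells, the genes furthest below in both libraries were Krt1, Calm4, BC100530, Mt4, Krt10, Dapl1, Ndufa4l2, Fcgbp, Krtdap and Krt77, several of which belong to the layers above the epidermal basal layer. Krt1 had 21.0 CPM in Card14KI and 7.98 CPM in WT members, against 2378 CPM in Card14KI and 815 CPM in WT Akr1c18-low basal cells. Krt10, its partner, had 141 and 53.2 CPM in Card14KI and WT members, against 4959 and 1693 CPM. The calmodulin-like gene Calm4 had 36.7 and 7.98 CPM, against 1905 and 948 CPM. The 8 spinous layer markers summed to 9366 CPM in Card14KI and 7067 CPM in WT members, against 29107 and 20504 CPM in the Akr1c18-low basal cells. This sum was lower by a smaller factor than Krt1, Krt10 and Calm4, which are among the genes furthest below. It was above the sum in the sebocyte gate, at 5483 CPM in Card14KI and 5817 CPM in WT cells. Spinous layer transcripts as a list were therefore reduced in the members and not absent. Granular layer markers summed to 96.9 CPM in Card14KI and 58.5 CPM in WT members and were at 0 in 16 of 34 and 6 of 17 members. These cells were not chosen on any of these genes, but the populations were divided by genes of the same cells, so the differences are a description. The differences also take in any cells above the basal layer among the Akr1c18-low basal cells, whose share was not tested.

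A set of genes was high in the members and low in the Akr1c18-low basal cells of both libraries. By the size of the ratio in the library where it was smaller, the leading genes were Igfbp2, Rgcc, Pdk4, Lcn2, Avpr1a, Acsbg1, Lpl, Plin2, Ldhb and Fgfbp1. Plin2 had 2370 CPM in Card14KI and 915 CPM in WT members, 1865 CPM without the 4 deep WT cells, against 16.1 CPM in Card14KI and 132 CPM in WT Akr1c18-low basal cells. Pdk4, a kinase that turns glucose oxidation down in favour of fatty acids, had 534 CPM in Card14KI and 314 CPM in WT members, against 0.329 and 21.9 CPM. Lpl, the lipase that frees fatty acids from lipoproteins, had 191 and 112 CPM, against 4.61 and 6.36 CPM. Its inhibitor Angptl4 had 230.5 and 178 CPM, against 9.54 and 34.7 CPM. Igfbp2, a binding protein of insulin-like growth factors, had 626 and 253 CPM, against 0 and 7.78 CPM. Rgcc, a cell-cycle regulator, had 1315 and 471 CPM, against 111 and 36.4 CPM. Avpr1a, a receptor of vasopressin, had 86.4 and 87.8 CPM, against 0.329 and 1.06 CPM. The 40 fatty acid and sebum lipid genes together came to 7166 CPM in Card14KI members, 4233 CPM in all WT members and 5903 CPM in those under 30000 UMIs, against 1376 CPM in Card14KI and 3382 CPM in WT Akr1c18-low basal cells.

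Pparg itself was found in members and in none of the Akr1c18-low basal cells. It had 47 UMIs in 17 of 34 Card14KI members and 13 UMIs in 8 of 17 WT members, and 0 UMIs in all 116 Card14KI and 148 WT Akr1c18-low basal cells, which allows up to 0.987 and 1.06 CPM there. The levels were 123 CPM in Card14KI members and 34.6 CPM in WT members, 69.1 CPM in those under 30000 UMIs. In cells of the sebocyte gate Pparg had 178 CPM in the Card14KI library and 152 CPM in the WT library, and in fibroblasts 7.91 and 5.53 CPM. Thinned to 2000 UMIs, it was seen in 4 of 31 Card14KI members (12.9%, 3.63 to 29.8) and 0 of 16 WT members (0% to 20.6%), intervals that overlap, and in 24.6% of sebocyte gate cells of either library. Depth therefore limits what can be said of Pparg in single members.

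**Figure D3:**
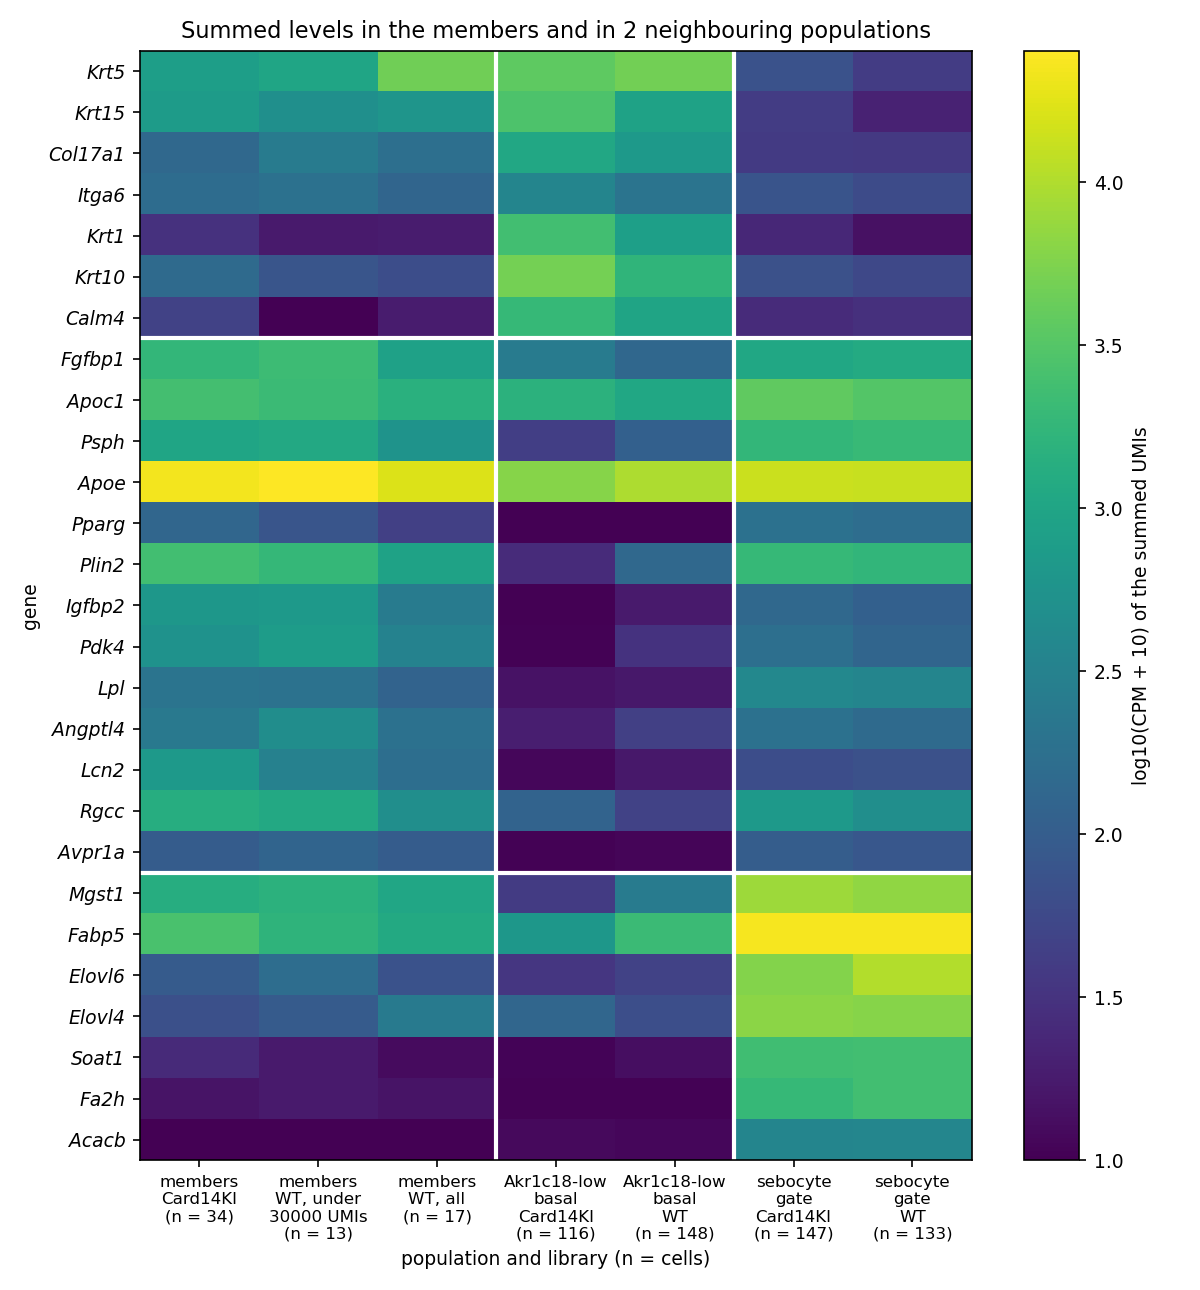
Colour gives log10(CPM + 10) of the summed UMIs of 27 genes (rows, in groups of basal and epidermal genes, gland and lipid genes, and sebocyte end products) in the members and in the Akr1c18-low basal and sebocyte gate cells of each library (columns, n cells). Members share Fgfbp1, Apoc1, Psph, Apoe, Pparg and Plin2 of the middle group with sebocyte gate cells, whereas Lcn2 is lower in the sebocyte gate. They share the first 4 rows, mostly at a lower level, with basal cells. Soat1, Fa2h and Acacb are near the bottom of the scale in members.

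Most products of the mature sebocyte were low. The genes furthest below the sebocyte gate in the members of both libraries included Fa2h, Soat1, Elovl6, Acacb and Aacs, which act in lipid synthesis. Soat1, which makes cholesteryl esters, had 15.7 CPM in Card14KI and 2.66 CPM in WT members, against 2245 CPM in Card14KI and 2368 CPM in WT sebocyte gate cells. Fa2h, which hydroxylates fatty acids, had 5.24 and 5.32 CPM, against 1886 and 2379 CPM. Elovl6, which lengthens saturated fatty acids, had 83.8 and 61.2 CPM, against 5927 and 10105 CPM. Acacb, an acetyl-CoA carboxylase, had 0 UMIs in all 51 members and 342 and 352 CPM in the Card14KI and WT sebocyte gate cells. Scd1 defined the gate and belongs to the same pathway, so low values of lipid synthesis genes follow in part from the rule.

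Some genes found in both populations did not follow this order, and in WT the direction depended on the deep cells. Fgfbp1 had 1781 CPM in Card14KI members and 2172 CPM in WT members under 30000 UMIs, but 865 CPM in all WT members, against 1063 CPM in Card14KI and 1187 CPM in WT sebocyte gate cells. Plin2 stood at 2370 CPM in Card14KI members, 1865 CPM in WT members under 30000 UMIs and 915 CPM in all WT members, against 1918 and 1724 CPM. For both genes the WT members were above the WT sebocyte gate cells without the deep cells and below them with these cells. Apoe, the main lipid carrier protein made in skin, was above in each set, at 21976 CPM in Card14KI members, 25295 CPM in WT members under 30000 UMIs and 16973 CPM in all WT members, against 13687 and 13272 CPM. Psph was lower in members, at 1000 CPM in Card14KI and 1121 CPM in WT members under 30000 UMIs (551 CPM in all), against 1782 and 1965 CPM. The glutathione transferase Mgst1 was at 1328 CPM in Card14KI and 1543 CPM in WT members under 30000 UMIs (1035 CPM in all), against 8000 and 6855 CPM. The 14 sebocyte markers summed to 8124 CPM in Card14KI and 6786 CPM in WT members under 30000 UMIs, 4066 CPM in all WT members, against 46828 and 50562 CPM in the sebocyte gate.

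The genes furthest above the sebocyte gate in the members of both libraries were Krt17, Krt15, Tpm2, S100a6, Krt5, Ier3, Aldh3a1, Defb1, Ccl27a and Ly6d. Krt17 rested on few cells. It had 629 CPM in Card14KI and 2996 CPM in WT members, but was seen in 14 of 34 and 11 of 17 members, and 70.8% of its Card14KI UMIs and 63.9% of its WT UMIs came from 1 cell. Aldh3a1, an aldehyde dehydrogenase, was more even, with a UMI in 27 of 34 Card14KI and 12 of 17 WT members, and 343 and 301 CPM, against 28.0 and 19.4 CPM in the sebocyte gate. Tspo, a mitochondrial protein tied to cholesterol transport, had 644 CPM in Card14KI members and 737 CPM in WT members under 30000 UMIs, against 64.2 and 62.0 CPM.

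Among the 43 members of the shared cluster, cells with more Scd1 had less Krt5 and Krt15. Scd1 is a gene of the rule and was cut at 0.3% of UMIs, so each value below covers its low range alone. Spearman's rho across these cells, whose values share library and depth, was -0.48 between the UMI shares of Scd1 and Krt5 (-0.54 among the 31 Card14KI and -0.40 among the 12 WT cells). For Krt15 it was -0.53 (-0.50 and -0.56). It was 0.59 for Plin2 (0.53 and 0.44), 0.57 for Mgst1 (0.54 and 0.68), 0.58 for Cebpb, a transcription factor of sebocytes (0.52 and 0.63), and 0.52 for Psph (0.52 and 0.63). For Krt14 and Scd1, both cut by the rule, it was -0.10 (-0.26 and -0.19). Cells are not replicates, and these values describe the 2 libraries.

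Markers of other cell types were at or near 0 in the members. T cell markers gave 1 UMI in Card14KI members (2.62 CPM) and 1 in WT members (2.66 CPM), with 6 of 7 markers, Cd3e and Ptprc included, at 0 in both. Mononuclear phagocyte markers came to 2.62 CPM in Card14KI and 7.98 CPM in WT members, neutrophil markers to 0 and 2.66 CPM and melanocyte markers to 0 in both. Fibroblast markers came to 28.8 CPM in Card14KI and 63.9 CPM in WT members and were at 0 in 26 of 34 and 8 of 17 members, against 28579 and 42558 CPM in fibroblasts. Endothelial markers were at 0 in Card14KI members and at 45.2 CPM in WT members, all from 1 of the deep cells. This was the cell with 8089 detected genes and 457 UMIs of Cst6, which had 7 UMIs of the endothelial marker Cldn5. Haemoglobin transcripts came to 157 CPM in Card14KI and 26.6 CPM in WT members, against 630 and 178 CPM over all kept cells.

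Sums of upper follicle and outer root sheath markers differed between the libraries over all members, but rested in large part on few cells. The outer root sheath list came to 401 CPM in Card14KI members and 7871 CPM in all WT members, and to 453 CPM in the WT members under 30000 UMIs. The upper follicle and duct list came to 5458 CPM in Card14KI members and 8802 CPM in WT members, 2011 CPM in those under 30000 UMIs. A single Card14KI member, in a cluster led by Cst6, Defb6, Krt79 and Krt17, held 1068 of the 1109 UMIs of Cst6. The median over single members of the upper follicle and duct list ran the other way from 5458 against 2011 CPM, at 959.5 CPM in Card14KI and 1267 CPM in all WT members. The part of these follicle cells in the ratios of other genes was not tested beyond the 3 sets of cells compared.

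Between the libraries, 377 of 2025 genes with 50 or more UMIs were at least 1.5-fold higher in Card14KI members, which is 18.6%, and 547 were at least 1.5-fold lower, which is 27%. The ratio is of CPM + 10, with UMIs summed over the members of each library. Among the members under 30000 UMIs, 124 of 1272 genes (9.75%) were higher and 125 (9.83%) lower in Card14KI, and over the whole cluster 107 of 6178 genes (1.73%) were higher and 330 (5.34%) lower. Of the 377 genes higher over all members, 75 were also higher among those under 30000 UMIs (19.9% of the first list and 60.5% of the second), and of the 547 lower genes 40 were also lower (7.31% and 32%). The other calls were not made without the 4 deep WT cells, where fewer genes reached 50 UMIs. Over the cluster, 5 of 5 tested fibroblast markers were lower in Card14KI (5.34% of all genes), with sums of 217 CPM in Card14KI and 663 CPM in WT cells. The part of fibroblast transcripts in the cluster's other ratios was not tested.

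The label's own markers show this. Fgfbp1 had 1781 CPM in Card14KI members and 865 CPM in all WT members, but 2172 CPM in the WT members under 30000 UMIs, so that the log2 ratio was 1.03 over all members, -0.29 without the deep cells and 0.13 over the cluster. Psph had log2 ratios of 0.85, -0.16 and -0.28, and Apoc1 0.76, 0.22 and 0.15, in the same order. Krt14, a gene of the rule, was at 4303 CPM in Card14KI and 18988 CPM in WT members, 3785 CPM in those under 30000 UMIs. Akr1c18, also of the rule, was higher in Card14KI in all 3 sets, at 3735 CPM against 1578 CPM in all WT members, 2395 CPM in WT members under 30000 UMIs, and 4090 against 2240 CPM over the cluster. Over all kept cells Akr1c18 was at 504 CPM in the Card14KI library and 269 CPM in the WT library, and in fibroblasts at 250 and 129 CPM.

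Abcc3, an efflux pump of conjugated organic anions, had the highest ratio by the rule for named genes. It had 113 UMIs in 27 of 34 Card14KI members and 6 UMIs in 4 of 17 WT members, or 296 and 16.0 CPM, a ratio of 18.5 (8.26 to 51.6). Without the deep cells the WT level was 30.7 CPM and the ratio 9.64 (3.66 to 36.0), and over the cluster, at 292 CPM in Card14KI and 68.1 CPM in WT cells, it was 4.29 (3.50 to 5.28). The difference was present in other cells of these libraries. In the sebocyte gate Abcc3 had 206 CPM in Card14KI and 56.5 CPM in WT cells, and over all kept cells 44.4 and 9.94 CPM.

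Gstm5, a glutathione transferase, had 69 UMIs in 23 of 34 Card14KI members and 10 UMIs in 6 of 17 WT members. Its levels were 181 CPM in Card14KI and 26.6 CPM in WT members, and 140 and 61.3 CPM over the cluster, and the WT members under 30000 UMIs held 3 of the 10 WT UMIs. In Akr1c18-low basal cells it ran the other way, with 91.1 CPM in the Card14KI library and 158 CPM in the WT library. Whether the ratio differs between these cell types cannot be tested with 1 mouse per genotype. Bhlhe41, a repressor of the circadian clock, had 191 CPM in Card14KI and 29.3 CPM in WT members (69.1 CPM under 30000 UMIs), and 154 and 73.9 CPM over the cluster.

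Mt1, a metal-binding metallothionein, had 1975 CPM in Card14KI and 365 CPM in WT members, 837 CPM in those under 30000 UMIs. It was seen in 32 of 34 and 12 of 17 members. Over all kept cells Mt1 was at 1319 CPM in the Card14KI library and 643 CPM in the WT library, in fibroblasts at 1938 and 869 CPM and in Akr1c18-low basal cells at 2080 and 747 CPM, so it was higher in each of these populations. The stress gene Atf3 was likewise at 670.5 CPM in Card14KI and 138 CPM in WT members (299 CPM under 30000 UMIs), and at 938 and 428 CPM over all kept cells.

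The other genes named as highest were Clmp, Nr4a1, Ifrd1, Idi1, Ptp4a1, Gnl3 and Egr3. Their log2 ratios lay between 1.95 and 2.40 over all members and between 0.81 and 1.34 without the deep cells. Over the cluster, Egr3, an immediate early factor, kept a log2 ratio of 0.79, with 656 CPM in Card14KI and 374 CPM in WT cells. The other 6 lay between 0.24 and 0.48 there, under the 1.5-fold limit of 0.58.

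**Figure D4:**
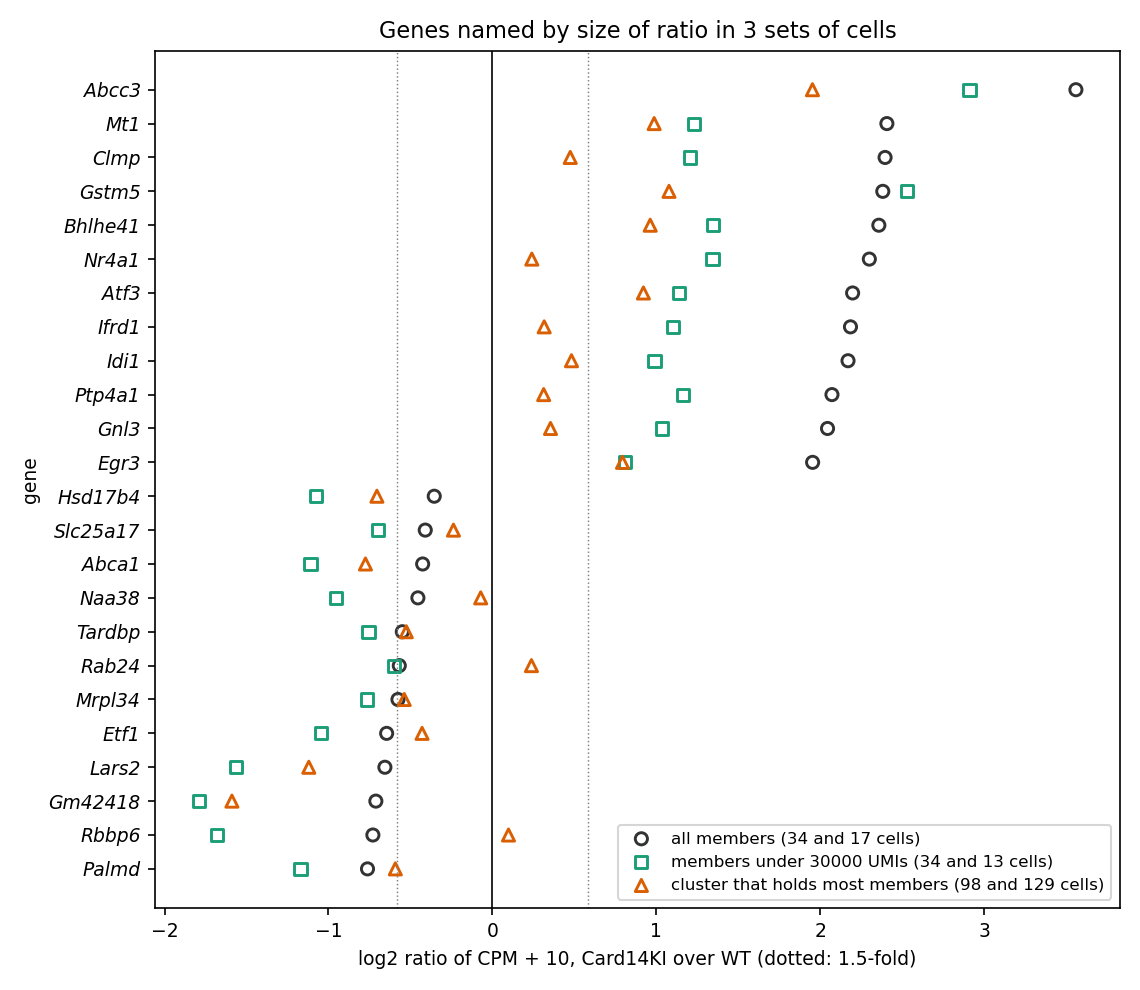
Log2 ratio of CPM + 10, Card14KI over WT (x), of the 24 genes named by the size of their ratio (y) over all members (circles), members under 30000 UMIs (squares) and the cluster that holds most members (triangles); dotted lines mark 1.5-fold. Abcc3 lies past 1.5-fold in each set at 3.56, 2.91 and 1.95, and Gm42418, Lars2 and Palmd lie below it in each set. The naming rule left out genes with a large share of their UMIs in a single cell, so genes with lower ratios are not shown.

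Of the 12 genes named as lowest, 5 were past 1.5-fold over all members: Palmd, Rbbp6, Gm42418, Lars2 and Etf1. Over all tested genes 547 were, so the named genes are not the lowest ratios of all. The naming rule left out genes with more than 20% of their UMIs in the higher library in a single cell. The deepest WT member held 84611 of the 375825 UMIs of WT members, which is past that share. Even an evenly expressed gene could therefore be left out. Gm42418 overlaps the ribosomal RNA repeat, and reads on it reflect ribosomal RNA. It had 6613 CPM in Card14KI and 10832 CPM in WT members, 22876 CPM under 30000 UMIs, and 6280 and 17868 CPM over all kept cells, so the whole libraries differed. Lars2, the mitochondrial leucyl-tRNA synthetase, had 403 CPM in Card14KI and 641 CPM in WT members, and 329 and 766 CPM over all kept cells. The remaining named genes, Mrpl34, Rab24, Tardbp, Naa38, Abca1, Slc25a17 and Hsd17b4, had log2 ratios between -0.58 and -0.35 over all members.

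Of these genes, Abca1 and Hsd17b4 were past 1.5-fold in the other sets of cells. Abca1, which exports cholesterol to apolipoproteins, had 144 CPM in Card14KI and 322 CPM in WT members under 30000 UMIs, 197 CPM in all WT members, and 175 and 306 CPM over the cluster. Hsd17b4, an enzyme of peroxisomal oxidation, had 60.2 CPM in Card14KI and 138 CPM in WT members under 30000 UMIs, 79.8 CPM in all WT members, and 69.4 and 119 CPM over the cluster.

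Genes that regulate the gland went both ways, and the sign of their median differed between the sets of cells. Of 28 listed, 14 had 50 or more UMIs, of which 6 were higher, 2 lower and 6 within 1.5-fold, with a median log2 ratio of 0.24 against -0.05 over all genes, where 18.6% were higher and 27% lower. Without the deep cells 5 of 10 were higher and 4 lower (9.75% and 9.83% of all genes), with a median of 0.45. Over the cluster 1 of 21 was higher and 1 lower (1.73% and 5.34% of all genes), with a median of -0.22 against -0.11 over all genes. The proto-oncogene Myc, which pushes follicle stem cells towards the gland, had 558 CPM in Card14KI and 154 CPM in WT members, 322 CPM under 30000 UMIs, and 415 and 328 CPM over the cluster. Cebpa, a partner of PPARG in lipid cells, had 306 and 128 CPM (184 CPM under 30000 UMIs), and 268 and 167 CPM over the cluster, higher in all 3 sets. Sox9 was at 327 CPM in Card14KI and 966 CPM in WT members, but at 269 CPM in WT members under 30000 UMIs.

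Sterol synthesis had 7 of 10 genes higher and 2 lower over all members (18.6% and 27% of all genes), with a median log2 ratio of 1.04, and 3 of 8 higher and 0 lower without the deep cells (9.75% and 9.83% of all genes), with a median of 0.25. Over the cluster 1 of 19 was higher and 1 lower (1.73% and 5.34% of all genes), with a median of -0.11, which is near the -0.11 of all genes there. Idi1, an isomerase early in the pathway, had 238 CPM in Card14KI and 45.2 CPM in WT members (115 CPM under 30000 UMIs). Fatty acid and sebum lipid genes had 3 of 11 higher and 2 lower over all members, with a median of 0.40, 2 of 9 higher and 1 lower without the deep cells, with a median of -0.06, and 1 of 28 higher and 5 lower over the cluster, with a median of -0.27. Over all members 18.6% of all genes were higher and 27% lower, without the deep cells 9.75% and 9.83%, and over the cluster 1.73% and 5.34%.

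Of 4 serine, one-carbon and ATF4 genes, 3 were higher over all members (18.6% of all genes), with a median log2 ratio of 0.86. Without the deep cells 1 was higher and 1 lower (9.75% and 9.83% of all genes), with a median of -0.20, and over the cluster 0 of 12 were higher and 1 lower (1.73% and 5.34%), with a median of -0.24. Phgdh, the first enzyme of serine synthesis, was the gene higher without the deep cells, with 304 CPM in Card14KI and 74.5 CPM in WT members, 177 CPM under 30000 UMIs. Apolipoprotein and lipid transfer genes had 3 of 7 higher and 1 lower over all members, 0 of 6 higher and 1 lower without the deep cells, and 0 of 8 higher and 2 lower over the cluster, with medians of 0.37, -0.19 and -0.17, and are read against the same shares of all genes, as are the aldo-keto genes. Aldo-keto and steroid enzymes, of which Akr1c18 belongs to the rule, had 2 of 3 higher over all members, 1 of 2 higher without the deep cells, and 1 of 7 higher and 2 lower over the cluster, with medians of 0.69, 0.20 and 0.01. Hsd17b12, which also lengthens fatty acids, had 225 CPM in Card14KI and 136 CPM in WT members, 269 CPM in those under 30000 UMIs.

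The MHC class I list had a median log2 ratio of -0.54 over 4 genes in all members, -0.51 over 4 without the deep cells and -0.54 over 12 in the cluster, below the -0.05, -0.02 and -0.11 of all genes. In Card14KI, 2 of 4 were lower over all members, where 27% of all genes were, 1 of 4 without the deep cells (9.83%) and 5 of 12 over the cluster (5.34%). The rest were within 1.5-fold and 0 were higher. At a Krt14 minimum of 1%, which leaves 2 Card14KI and 3 WT cells, 2 genes of the list, H2-K1 and H2-D1, turned sign. H2-K1, a classical class I heavy chain, had 440 CPM in Card14KI and 1118 CPM in WT members, 814 CPM under 30000 UMIs, and 525 and 976 CPM over the cluster. H2-D1 had 416 and 777 CPM (614 CPM under 30000 UMIs), and the light chain B2m 775 and 891 CPM (983 CPM under 30000 UMIs). Sebocyte gate cells had 731 CPM of H2-K1 in the Card14KI library and 966 CPM in the WT library. Akr1c18-low basal cells had 1359 and 1145 CPM and all kept cells 1282 and 1020 CPM, the opposite order. The difference between cell types was not tested.

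Of 23 listed genes of the IL-17 response, 8 had no UMI in the members of either library, 13 had between 1 and 46 UMIs over both and 2 had 50 or more UMIs. Both of these were higher in Card14KI over all members (18.6% of all genes) and 1 without the deep cells (9.75%). Over the cluster 3 of 6 were higher (1.73%), namely Cxcl1, Cxcl2 and Zc3h12a, with a median log2 ratio of 0.60 against -0.11 over all genes. Cxcl2, a neutrophil chemokine, had 40.5 CPM in Card14KI and 6.86 CPM in WT cells of the cluster, and Zc3h12a, an RNase that limits inflammatory transcripts, 35.1 and 19.0 CPM. S100a9 was at 0 in both, S100a8 had 1 UMI in Card14KI and 2 in WT members, and Slpi had 0 and 4. The 2 genes with 50 or more UMIs were Nfkbiz and Lcn2. Lcn2, an iron-binding defence protein, had 259 UMIs in 25 of 34 Card14KI members and 60 UMIs in 8 of 17 WT members. Its levels were 678 CPM in Card14KI and 160 CPM in WT members, 299 CPM under 30000 UMIs, and 616 and 413 CPM over the cluster, under the 1.5-fold limit there at a log2 ratio of 0.57. Lcn2 was low elsewhere, with 1.64 CPM in Card14KI and 6.72 CPM in WT Akr1c18-low basal cells and 53.4 and 60.1 CPM in the sebocyte gate. Nfkbiz, an amplifier of IL-17 responses, had 236 and 130 CPM, 192 CPM under 30000 UMIs.

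Chemokine transcripts rested on few cells. Ccl2 had 53 UMIs in 7 of 34 Card14KI members and 2 UMIs in 2 of 17 WT members, with 67.9% of the Card14KI UMIs in 1 cell, and Cxcl1 had 38 UMIs in 8 and 2 UMIs in 1, with 57.9% in 1 cell. Over the cluster Ccl2 was at 109 CPM in Card14KI and 18.0 CPM in WT cells and Cxcl1 at 180 and 49.6 CPM. Fibroblasts had 1052 CPM of Ccl2 in the Card14KI library and 318 CPM in the WT library, and 1131 and 450.5 CPM of Cxcl1, in the same order. Fibroblast markers came to 28.8 CPM in Card14KI members and 76.8 CPM in WT members under 30000 UMIs. Over the cluster they came to 217 CPM in Card14KI and 663 CPM in WT cells. The part of transcripts from fibroblasts in the chemokine values was not tested.

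The CARD14 pathway and the IL-36 family were thinly represented. Card14 had 0 UMIs in all 34 Card14KI and 17 WT members, which allows up to 7.86 and 7.98 CPM, and 0 UMIs over the 98 and 129 cells of the cluster, which allows up to 2.34 and 1.58 CPM. In Akr1c18-low basal cells Card14 was at 10.5 CPM in the Card14KI library and 2.48 CPM in the WT library, with a UMI in 21 of 116 and 6 of 148 cells, and in fibroblasts at 2.53 and 1.52 CPM. A 3' count of Card14 does not show the knock-in allele and so does not check the labels. Of the 4 tested genes of the CARD14 and NF-kB list 3 were higher over all members (18.6% of all genes) and 0 without the deep cells (9.75%). Over the cluster 1 of 15 was higher (1.73% of all genes), with a median log2 ratio of 0.05. Nfkbia, the inhibitor that NF-kB induces, had 566 CPM in Card14KI and 285 CPM in WT members, 507 CPM under 30000 UMIs, and 420 and 430 CPM over the cluster. Of the 3 listed IL-36 agonist genes, Il1f6 had 1 UMI in Card14KI members and Il1f8 and Il1f9 none, with none in WT members. The receptor chain Il1rl2 had 4 UMIs in each library, and Il33, an alarmin of barrier cells, 36 and 28 UMIs.

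Growth factor genes had 4 of 11 higher and 3 lower over all members (18.6% and 27% of all genes), 0 of 7 higher and 1 lower without the deep cells (9.75% and 9.83%), and 1 of 14 higher and 1 lower over the cluster (1.73% and 5.34%), with medians of 0.46, -0.29 and -0.05. Fgfr2, the receptor through which fibroblast growth factors act on the gland, had 91.7 CPM in Card14KI and 39.9 CPM in WT members, 99.8 CPM under 30000 UMIs, and 112 and 124 CPM over the cluster. Fgfbp3, a relative of Fgfbp1, had 139 and 90.5 CPM (207 CPM under 30000 UMIs), and 132 and 251 CPM over the cluster, where it was lower in Card14KI. The feedback inhibitors Spry2 and Dusp6 had 139 and 102 CPM in Card14KI members and 42.6 and 34.6 CPM in WT members, but 107.5 and 46.1 CPM in WT members under 30000 UMIs. Dusp6 was also past 1.5-fold over the cluster, at a log2 ratio of 0.99.

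Immediate early and heat shock genes, which tissue digestion can raise, differed in their counts between the sets of cells. Of 25 genes, 17 were higher and 3 lower in Card14KI over all members (18.6% and 27% of all genes), with a median log2 ratio of 0.90. Without the deep cells 3 of 24 were higher and 2 lower (9.75% and 9.83%), with a median of 0.06, and over the cluster 4 of 25 were higher and 1 lower (1.73% and 5.34%), with a median of 0.20. The list summed to 23912 CPM in Card14KI and 15188 CPM in WT members, 22692 CPM in those under 30000 UMIs, and to 21345 and 16525 CPM over all kept cells. Hyperproliferative keratinocyte genes had 6 of 8 lower over all members (27% of all genes), Krt6a among them with 13.1 CPM in Card14KI and 6535 CPM in WT members. Without the deep cells 2 of 5 were higher and 0 lower (9.75% and 9.83% of all genes).

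**Figure D5:**
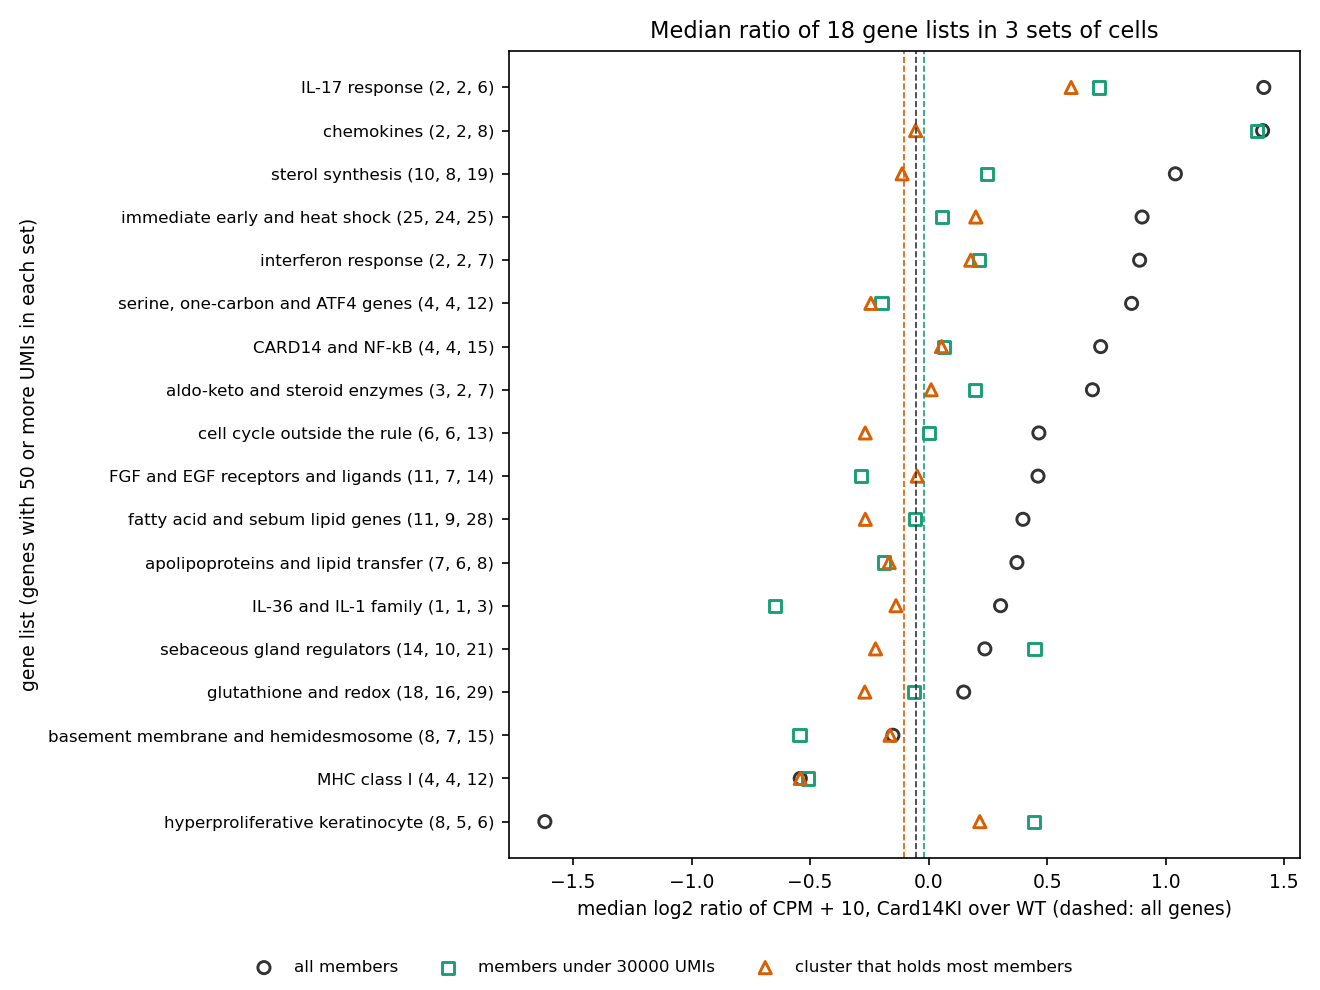
Median log2 ratio of CPM + 10, Card14KI over WT (x), of 18 gene lists (y, with the number of genes of 50 or more UMIs in each set) over all members (circles), members under 30000 UMIs (squares) and the cluster that holds most members (triangles); dashed lines give the median over all genes in each set. Medians over all members lie to the right of the other sets for most lists, and the MHC class I list lies near -0.5 in each set.

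Basement membrane and hemidesmosome genes had 0 higher and 1 lower of 8 over all members (Krt5), where 27% of all genes were lower, 0 higher and 3 lower of 7 without the deep cells (9.83%), with a median log2 ratio of -0.54, and 0 higher and 2 lower of 15 over the cluster (5.34%), with a median of -0.16. Col17a1 had 131 CPM in Card14KI and 253 CPM in WT members under 30000 UMIs, and 161 and 213 CPM over the cluster. Dst, which anchors keratin to the hemidesmosome, had 296 and 453 CPM, and 344 and 370 CPM over the cluster. Glutathione and redox genes had 5 higher and 2 lower of 18 over all members (18.6% and 27% of all genes), 2 and 3 of 16 without the deep cells (9.75% and 9.83%), and 1 and 6 of 29 over the cluster (1.73% and 5.34%), with medians of 0.15, -0.06 and -0.27. Interferon response genes had 1 of 2 tested higher over all members (18.6% of all genes), namely Ifitm3, a membrane antiviral protein. Ifitm3 had 775 CPM in Card14KI and 234 CPM in WT members, 414 CPM under 30000 UMIs. It was also higher over all kept cells, at 1061 and 804 CPM.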

How the data were processed

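Per the labels' protocols, the libraries were made with the 10x 3' gene expression kit version 3.1 from dissociated whole skin. The authors deposited unnormalized UMI counts, with a value for each gene in each cell barcode. Counting used Cell Ranger 6.0.2 and mm10, per the submitters' processing notes, whereas the file headers name Cell Ranger 5.0.0. Positions come from GENCODE vM21 (GRCm38), which held 30934 of the 31053 gene IDs. Counts come from transcript 3' ends, and reads of near-identical genes can be lost.

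Cells were filtered and members chosen as given in the report. The members, comparison populations and gene lists were chosen with earlier results of these data known. For each library, the UMIs of all cells in a set were added up and expressed as CPM of the set's total. Genes with 50 or more UMIs over both libraries were compared by the log2 ratio of CPM + 10 and called at 1.5-fold. The added 10 shrinks ratios at low levels. No test was possible with 1 mouse per genotype. Intervals at 95% are exact (Clopper-Pearson for shares, conditional binomial for ratios) or Newcombe intervals for differences of shares. A count of 0 was bounded by 3 counts. Fibroblasts were kept cells with 20 or more UMIs of Col1a1 and Col1a2.

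Between libraries, the named genes were the 12 highest and 12 lowest ratios with a UMI in 10% or more of the members of the higher library and at most 20% of that library's UMIs in 1 cell, and per list the markers and up to 5 members with the largest ratio. Between populations they were the 10 genes with the largest ratio in the library where it was smaller. Genes outside this rule were named for their known role.

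All kept cells were clustered with scanpy 1.11.5 (2000 variable genes, 30 components, 20 neighbours, Leiden resolution 1). Scrublet's automatic threshold marked 4 Card14KI cells (0.137%) and 2 WT cells (0.0461%), which was taken as not having worked, and in an alternative the highest scores were removed up to 0.8% per 1000 barcodes. Calls were checked on simulated sums with counting error alone, which does not cover the spread between cells. Analyses used Python 3.11.15. Results for some genes are not reported here.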

Additional observations from a re-analysis of the deposited data

How the results depend on the processing

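The count of Card14KI members (34) was 2 at a Krt14 minimum of 1%, 69 at 0.2% and 98 for the whole cluster, and that of WT members (17) was 3, 51 and 129, with 11 at an Akr1c18 minimum of 0.1% and 29 with no cell filter. Genes higher in Card14KI (377) and lower (547) came to 185 and 221 at an Akr1c18 minimum of 0.1%, 138 and 323 at a Krt14 minimum of 1%, 1102 and 1816 with a minimum of 10 UMIs, 1763 and 2842 with no minimum, 124 and 125 for members under 30000 UMIs, and 107 and 330 over the cluster. The higher genes came to 222 with each cell weighted equally and to 235 at a Krt14 minimum of 0.2%. The limit of 30000 UMIs, the Krt14 minimum of 0.2% and the cluster were chosen after the data were seen.

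Signs of log2 ratios of Card14KI over WT differed as follows. Without the 4 deep WT members, Krt14 was at 0.18, Fgfbp1 at -0.29, Psph at -0.16, Sox9 at 0.28 and Hsd17b12 at -0.24, and the list medians were 0.28 for outer root sheath, -0.20 for serine and ATF4 genes, -0.41 for basal, -0.29 for growth factor, -0.19 for apolipoprotein and 0.44 for hyperproliferative genes. Over the cluster, Krt14 was at 0.38, Psph at -0.28, Rbbp6 at 0.098, Sox9 at 0.010, Hsd17b12 at -0.13, Nfkbia at -0.032 and Fgfr2 at -0.13. List medians over the cluster were -0.076 (spinous), 0.010 (outer root sheath), -0.22 (sebocyte), -0.24 (serine and ATF4), -0.11 (sterol) and 0.22 (hyperproliferative). At a Krt14 minimum of 1%, with 2 and 3 cells, Gm42418 was at 0.68, H2-K1 at 0.0072 and H2-D1 at 0.26, and the sebocyte and sterol medians at -0.41 and -8.78. There, members over Akr1c18-low basal cells, in the library with the smaller ratio, had log2 ratios of -1.68 for Pdk4, -0.71 for Lpl, -2.21 for Rgcc, -0.15 for Avpr1a, -2.16 for Angptl4, -3.76 for Fgfbp1 and -2.76 for Psph, and Aldh3a1 over the sebocyte gate was at -1.56. At a Krt14 minimum of 0.2%, Hsd17b12 was at -0.069 and the aldo-keto median at -0.014, and at an Akr1c18 minimum of 0.1% the spinous median was at -0.63. With each cell weighted equally the basal and growth factor medians were at -0.48 and -0.45, against 0.27 and 0.46. The cause was not tested.

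Centring on the median gene, adding 1 CPM in place of 10, stricter cell filters, the removal of high doublet scores, equal weights for cells and leaving out the top cell of each gene turned no sign among the compared genes past 1.5-fold over all members. Signs of smaller ratios turned in some of these, such as Dst (-0.49) with equal weights and B2m (0.067) without the top cell. The removal of high doublet scores took out 0 members of either library, so no value could change there. No paired analysis was possible because each genotype has 1 mouse. Depth limits genes under 50 UMIs, and a member with 2000 UMIs often shows none of a gene such as Pparg.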

Other observations

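Akr1c18 at or over 0.05% of UMIs was found in 471 Card14KI and 506 WT kept cells, or 16.2% and 11.7%, of which members were 7.22% and 3.36%. Of the cells with Krt14 under 0.3% and the rest of the rule met, 195 of 279 in the Card14KI library and 206 of 372 in the WT library lay in a cluster of 531 Card14KI and 398 WT cells led by Pla1a, Anxa3, Ptgs2, Ackr3 and Ptx3. Its summed Akr1c18 level over both libraries was 609 CPM, with 33.2 CPM of Krt14 and 4.65 CPM of Fgfbp1.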
